A study of Mus musculus with 9 samples.

Results

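Gene expression in the anterior cingulate cortex of mice kept awake through the light phase was compared with that of mice injected with saline. The comparison takes 6 of the series' 9 microarrays, 3 from sleep-deprived and 3 from saline-injected animals, and every gene that could be assigned to a probe set of its own, 22180 genes in all. All animals were C57BL/6J mice, and the cortex was microdissected at ZT13, where ZT counts hours from lights on. Sleep deprivation ran over the light phase, ZT0 to ZT12, in a circular cage with a slowly turning bar. Control mice were given saline intraperitoneally at ZT5, and the remaining group of 3, used here for the estimate of spread, received ketamine at 3 mg/kg at ZT5. The labels mention no injection of the sleep-deprived mice, so sleep loss and the absence of an injection cannot be told apart, and tissue was taken 1 h after the deprivation ended. The labels call the arrays of a group biological replicates and say nothing of sex or age.

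The anterior cingulate cortex is a midline frontal region with roles in emotion, pain and attention. Time awake and time of day both act on cortical transcripts. In mammals the circadian clock runs on CLOCK and BMAL1, which switch on their own repressors and output genes through E-boxes, while immediate-early genes such as Fos and Arc follow recent neuronal activity, and glucocorticoids, released in stress, act through their own receptor. Each of these systems has well-known target genes, and the genes below are grouped by them.

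The values are array intensities as deposited, on a linear scale, and differences are given as sleep deprivation minus saline on the log2(intensity + 16) scale, with a standard error from limma (n = 3 arrays a group). In lists of intensities, arrays stand in the order 1, 2, 3. The number of arrays limits the precision: the median standard error was 0.11, and an exact permutation test of 3 against 3 arrays cannot give a p below 0.10. No gene passed a Benjamini-Hochberg adjusted p of 0.05 in limma (0 of 22180, 0%). Without adjustment, 781 genes (3.52%) had a limma p below 0.05, 399 of them higher after sleep deprivation (1.8%) and 382 lower (1.72%). The arrays of the 2 groups did not overlap at all for 1576 genes (7.11%), 791 of them higher (3.57%) and 785 lower (3.54%). With no difference between the groups, a share of about 0.05 would be expected at that p. Groups without overlap would be expected at a share of 0.10. Neither 3.52% nor 7.11% is thus an excess over what no difference would give. Over all genes, 10333 had a higher mean (46.6%) and 11847 a lower mean (53.4%). These shares are the background for the counts below over all arrays, and "higher" and "lower" below describe means, not calls.

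Most differences were small. The central 95% of genes lay between -0.24 and 0.22, the median over all genes was -0.0088, 59 genes differed by more than 0.5, and 3 differed by more than 1 on the log2 scale. Those 3 were Lcn2, Ttr and Mir290a. Lcn2 and Ttr are described below with their arrays, because in both cases the arrays of 1 group differed widely among themselves. Mir290a is a dim microRNA locus, named here only after its value was seen.

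**Figure D1:**
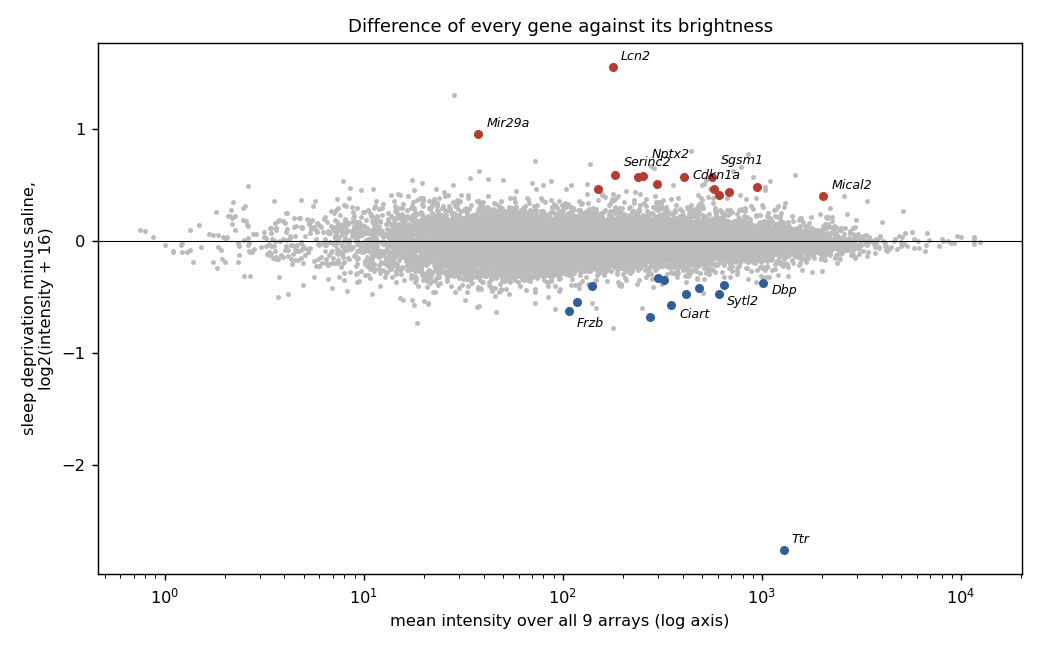
Difference between sleep-deprived and saline arrays for each of 22180 genes (vertical axis, log2(intensity + 16) units) against the gene's mean intensity over all 9 arrays (horizontal axis, log scale). The 12 leading higher and 12 leading lower genes at intensity of at least 100 and 3 further genes are coloured, red for higher and blue for lower, and most genes lie between -0.24 and 0.22.

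The sleep-deprived arrays were less alike than the saline arrays. Pearson correlations across genes were 0.993 to 0.995 between saline arrays, 0.986 for every pair of sleep-deprived arrays, and 0.987 to 0.993 between arrays of different groups. Sleep-deprived array 2 had the lowest median intensity of the 9 arrays, 97.7, against 101 to 106 on the others. Its shift depended on brightness: for genes at intensity 30 to 100 its median deviation from the saline mean was -0.12, and for genes at 300 to 1000 it was 0.10. Sleep-deprived array 3 went the other way, at 0.089 and -0.069, while the saline arrays stayed within 0.02 of 0 in these classes. For most gene groups below, the counts and median without sleep-deprived array 2 follow those over all arrays, and values without another array are given for some groups. With array 2 left out, all genes had a median of -0.012, with 10192 higher and 11988 lower. At an unadjusted limma p below 0.05, 600 of them were higher and 656 lower. That fit keeps the opposite shift of array 3, and the part of this shift in the list values was not tested.

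**Figure D2:**
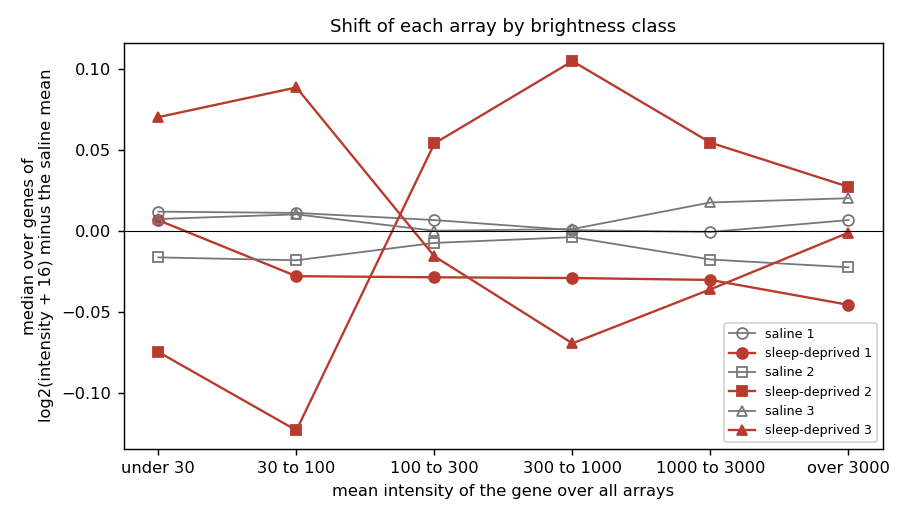
Median over genes of each array's deviation from the saline mean (vertical axis, log2(intensity + 16) units) in 6 classes of mean intensity (horizontal axis). Sleep-deprived array 2 lies below 0 among dim genes and above 0 among genes of 100 and more, sleep-deprived array 3 shows the reverse, and the saline arrays stay near 0.

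The tissue carried the markers of cerebral cortex. Of 18 measured markers of cortical excitatory neurons, 16 were above the array's median intensity on all 6 arrays and none was at 0. Slc17a7, the vesicular glutamate transporter of these neurons, read 2795, 2691 and 2900 on the saline arrays and 2700, 2840 and 2693 on the sleep-deprived arrays. Tbr1, a transcription factor of cortical projection neurons, read 1156, 1235 and 1250 after saline and 1251, 1277 and 1347 after sleep deprivation. Both genes were bright on every array and their group means lay close together, at differences of -0.026 ± 0.085 and 0.089 ± 0.088. Of 6 measured striatal neuron markers, 3 were also above the array's median on all 6 arrays, and of 6 thalamic and septal markers, 4. The median intensity of these lists was 208 and 156, against 803 for the cortical list, so lying above the array's median is not particular to cortical markers.

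The smallest adjusted p of all genes belonged to a microRNA locus, Mir29a. Its probe set read 23.5, 22.0 and 21.5 on the saline arrays and 46.4, 73.5 and 58.2 on the sleep-deprived arrays. All 3 sleep-deprived arrays lay above all saline arrays, and the saline arrays differed little among themselves. The difference was 0.96 ± 0.12, with a limma adjusted p of 0.0558, just outside the threshold. Without sleep-deprived array 2 it was 0.83 ± 0.11, with an adjusted p of 0.0488. The probe set is dim, and it was not established which strand or which stage of processing of the microRNA it detects. The miR-29 family shares its seed, the bases 2 to 8 that pair with target messages, and is known for targets among collagens. Mir29b-1, the neighbouring locus in the same cluster, lies 275 bases away on the same strand of chromosome 6. It was chosen after the values were seen, for that position and seed. Its probe set read 5.62, 2.76 and 3.87 after saline and 7.86, 9.75 and 4.32 after sleep deprivation, with overlapping groups and a difference of 0.21 ± 0.10. Mir582, the next microRNA locus by p, read 19.3, 14.6 and 13.2 on the saline arrays and 35.4, 26.1 and 27.2 on the sleep-deprived arrays, which did not overlap, at a difference of 0.52 ± 0.11 and an adjusted p of 0.835. The mature RNAs of these 3 loci in RefSeq (GRCm38.p6) are printed with the seed in capitals, to show which seed the leading locus carries and that its neighbour shares it on the 3p arm but not on the 5p arm:
mmu-miR-29a-3p: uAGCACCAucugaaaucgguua
mmu-miR-29b-3p: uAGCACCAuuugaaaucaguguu
mmu-miR-29a-5p: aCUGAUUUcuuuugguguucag
mmu-miR-29b-1-5p: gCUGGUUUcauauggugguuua
mmu-miR-582-5p: aUACAGUUguucaaccaguuac
mmu-miR-582-3p: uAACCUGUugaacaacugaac

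In GRCm38.p6 the Mir29a hairpin lies at chr6:31062660-31062747 and the Mir29b-1 hairpin at chr6:31063023-31063093, both on the minus strand, and the Mir582 hairpin at chr13:109324744-109324824 on the plus strand. Over all 481 measured microRNA loci the median difference was 0.0024, with 248 higher and 233 lower, and 0.032, with 290 higher and 191 lower, without sleep-deprived array 2. At an unadjusted limma p below 0.05 there were 21 higher and 11 lower loci, which is 4.37% and 2.29% of the list. Among all genes under intensity 30, where Mir582 lies, these shares were 4.15% and 3.5%, and among those at 30 to 100, where Mir29a lies, 1.44% and 2.39%. Mir3093, the brightest of the loci named, read 60.3, 55.6 and 63.7 after saline and 95.6, 88.2 and 82.6 after sleep deprivation, again without overlap, and differed by 0.47 ± 0.11. Mir145a, a microRNA of vascular smooth muscle, read 27.7, 23.9 and 33.3 after saline and 52.0, 67.4 and 39.9 after sleep deprivation, at 0.63 ± 0.19. Mir302b and Mir466n also lay higher on all 3 sleep-deprived arrays, at 0.45 ± 0.13 and 0.32 ± 0.095. Collagen and laminin genes, which include known miR-29 targets, had a median difference of -0.055, with 14 of 54 higher and 40 lower, and 0 of 54 reached an unadjusted limma p below 0.05. Without sleep-deprived array 2 their median was -0.025, with 26 higher and 28 lower.

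The 12 genes with the smallest p among those higher after sleep deprivation at intensity of at least 100 differed by 0.41 to 0.59, with limma adjusted p from 0.314 to 0.924. All 12 had sleep-deprived arrays wholly above the saline arrays. The choice by p favours such genes. Serinc2, a member of the serine incorporator family, read 147, 162 and 151 on the saline arrays and 237, 246 and 233 on the sleep-deprived arrays. Its 3 sleep-deprived arrays lay close together and far above the saline ones, at a difference of 0.59 ± 0.10, or 1.51-fold on that scale. Sgsm1, which encodes a modulator of small G proteins, read 481, 467 and 497 after saline and 772, 773 and 637 after sleep deprivation, a difference of 0.57 ± 0.10. Sleep-deprived array 3 was the lowest of its group and still above every saline array.

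The next 5 are Nptx2, Vgf, Cbln4, Mdga1 and Sorcs3. Nptx2, a secreted pentraxin that gathers AMPA receptors at excitatory synapses, read 209, 204 and 258 on the saline arrays and 316, 407 and 310 on the sleep-deprived arrays, with array 2 the highest, and differed by 0.59 ± 0.12. Vgf, the precursor of several neuropeptides, read 623, 578 and 654 after saline and 871, 895 and 777 after sleep deprivation, at 0.44 ± 0.10. Cbln4, a secreted synaptic organiser, read 229, 200 and 190 after saline and 250, 354 and 348 after sleep deprivation, where sleep-deprived array 1 lay only just above saline array 1, at 0.57 ± 0.13. Mdga1, a membrane-anchored protein that binds neuroligins, read 127, 129 and 140 after saline and 195, 196 and 175 after sleep deprivation, at 0.47 ± 0.10. Sorcs3, a sorting receptor of neurons, read 539, 544 and 586 after saline and 781, 807 and 660 after sleep deprivation, at 0.42 ± 0.10. In all 5 genes every sleep-deprived array lay above every saline array.

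The other 5 have diverse roles. Cdkn1a, the cyclin-dependent kinase inhibitor p21, read 353, 341 and 380 on the saline arrays and 568, 633 and 440 on the sleep-deprived arrays, at 0.57 ± 0.12, with a wide spread in the sleep-deprived group. Mical2, an enzyme that oxidises actin, was the brightest of the 12, at 1769, 1915 and 1843 after saline and 2561, 2530 and 2262 after sleep deprivation, and differed by 0.41 ± 0.090. Serpina3n, a secreted protease inhibitor, read 274, 226 and 262 after saline and 356, 392 and 355 after sleep deprivation, at 0.51 ± 0.10. Zmiz1, a transcriptional coactivator, read 723, 826 and 840 after saline and 1271, 1092 and 1011 after sleep deprivation, at 0.49 ± 0.11. Galnt9, which starts O-linked sugar chains, read 575, 498 and 443 after saline and 627, 766 and 718 after sleep deprivation, at 0.47 ± 0.11. In each of these the lowest sleep-deprived array stayed above the highest saline array, by the smallest margin in Galnt9.

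**Figure D3:**
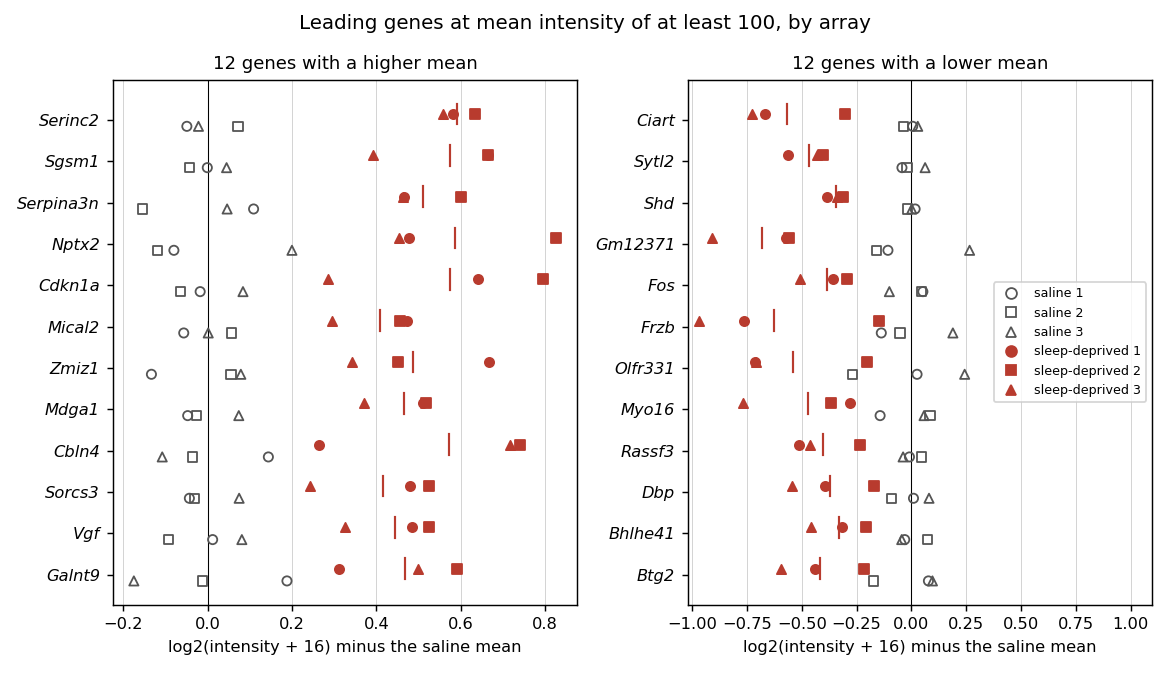
Values by array of the 12 higher and 12 lower genes with the smallest p at intensity of at least 100, as log2(intensity + 16) minus the saline mean (horizontal axis). Open grey symbols are saline arrays, filled red symbols are sleep-deprived arrays, and the vertical red bar is the sleep-deprived mean; 23 of the 24 genes have groups that do not overlap, the exception being Olfr331.

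Among the genes with a lower mean, the smallest p belonged to Ciart, a repressor of the CLOCK and BMAL1 pair. The 12 leading lower genes differed by -0.68 to -0.33, with limma adjusted p from 0.527 to 1.00, and 11 of 12 had groups that did not overlap. Ciart read 419, 407 and 426 on the saline arrays and 256, 335 and 245 on the sleep-deprived arrays. Saline arrays were tightly grouped, and all 3 sleep-deprived arrays lay below them, array 2 the least. The difference was -0.57 ± 0.11, a 0.675-fold level, and without sleep-deprived array 2 it was -0.70 ± 0.089 with a limma adjusted p of 0.0485. Leaving out the array nearest saline favours a small p, so that p is no support for a difference. Dbp, a clock output gene that encodes a PAR bZIP transcription factor, read 1103, 1028 and 1159 after saline and 829, 971 and 746 after sleep deprivation, at -0.37 ± 0.10, and Bhlhe41, a repressor also called DEC2, read 333, 359 and 330 after saline and 270, 293 and 244 after sleep deprivation, at -0.33 ± 0.093. In both genes sleep-deprived array 2 lay nearest the saline arrays.

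Fos, the immediate-early AP-1 factor, also stood among the 12. It read 803, 801 and 721 on the saline arrays and 600, 629 and 540 on the sleep-deprived arrays, at -0.39 ± 0.10. Btg2, an antiproliferative immediate-early gene, read 585, 489 and 593 after saline and 404, 474 and 361 after sleep deprivation, at -0.42 ± 0.12, with array 2 just under the lowest saline array. Frzb, a secreted Wnt antagonist, read 111, 119 and 144 after saline and 66.4, 110 and 55.5 after sleep deprivation, at -0.63 ± 0.17. Its sleep-deprived array 2 nearly reached the saline arrays, and without it the difference was -0.87 ± 0.11 with a limma adjusted p of 0.0485. The same limit holds for this p as for that of Ciart. Sytl2, an effector of RAB27 in vesicle traffic, read 677, 688 and 730 after saline and 467, 523 and 514 after sleep deprivation, at -0.47 ± 0.10. Shd, an SH2-domain adaptor, read 368, 359 and 364 after saline and 275, 290 and 284 after sleep deprivation, at -0.34 ± 0.084, with little spread in either group. Myo16, an unconventional myosin, read 441, 519 and 509 after saline and 399, 375 and 280 after sleep deprivation, at -0.47 ± 0.13. Rassf3, a Ras-association protein, read 159, 166 and 156 after saline and 108, 134 and 112 after sleep deprivation, at -0.40 ± 0.11. These 4 were non-overlapping on all arrays. The predicted gene Gm12371 differed by -0.68 ± 0.17 and the olfactory receptor gene Olfr331, whose groups overlapped, by -0.54 ± 0.15.

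E-boxes were looked up in the 250 bases before the RefSeq start (GRCm38.p6) of the 24 leading genes, since clock repressors stood among them. The letters searched were CACGTG, which read the same on both strands, and 4 of the 20 leading genes present in the promoter table held them, Ciart and Bhlhe41 with a lower mean and Mical2 and Galnt9 with a higher one. Over all 27025 genes in that table the share was 6.86%. The motif was chosen with the leading genes known, so these values are no test of enrichment. The cyclic AMP response element TGACGTCA, also palindromic, stood in 1 of the 20, Btg2, against 1.77% of all genes. Ciart held 3 E-boxes in its 250 bases. Of 18 clock genes in the table, 5 held CACGTG, namely Ciart, Bhlhe41, Per1, Cry1 and Tef. The motifs share the letters ACGT, but neither contains the other. A match describes letters and does not show a bound site. Stretches around the motif are printed with the motif in capitals, on the strand of the gene, for the clock repressors, for the higher genes that carry the same letters, and for Btg2. The Ciart stretch lies at chr3:95882279-95882404 on the minus strand, that of Bhlhe41 at chr6:145865508-145865633 on the minus strand, and that of Btg2 at chr1:134079254-134079381 on the minus strand. Mical2 is shown at chr7:112225611-112225736 and Galnt9 at chr5:110544142-110544267, both on the plus strand:
Ciart: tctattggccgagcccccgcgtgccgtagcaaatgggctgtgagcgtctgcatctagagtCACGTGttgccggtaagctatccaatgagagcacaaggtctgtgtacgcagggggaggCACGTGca
Bhlhe41: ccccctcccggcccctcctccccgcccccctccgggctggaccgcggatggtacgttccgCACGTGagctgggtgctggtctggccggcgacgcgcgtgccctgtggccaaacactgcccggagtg
Mical2: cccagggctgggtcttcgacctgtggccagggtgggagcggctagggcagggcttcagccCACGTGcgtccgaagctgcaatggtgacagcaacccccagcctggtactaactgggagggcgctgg
Galnt9: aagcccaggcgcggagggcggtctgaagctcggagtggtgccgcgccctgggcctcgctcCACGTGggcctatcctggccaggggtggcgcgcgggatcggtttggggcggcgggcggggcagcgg
Btg2: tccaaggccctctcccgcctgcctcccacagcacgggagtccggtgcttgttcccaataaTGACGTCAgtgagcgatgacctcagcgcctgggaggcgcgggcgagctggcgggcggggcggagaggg

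The clock genes as groups leaned to lower repressors and outputs. Of 9 measured clock repressors, 8 had a lower mean and 1 a higher mean, with a median difference of -0.086 against -0.0088 over all genes. Ciart and Bhlhe41 were the 2 at an unadjusted limma p below 0.05. Per1, the light- and activity-responsive period gene, read 1115, 1289 and 1163 on the saline arrays and 1338, 1248 and 1046 on the sleep-deprived arrays, which overlapped, at 0.021 ± 0.11. Of 6 output genes 5 had a lower mean, with a median of -0.069, and 5 of 6 at -0.11 without sleep-deprived array 2. Besides Dbp, the deubiquitinase gene Usp2 read 1078, 1059 and 1112 after saline and 965, 965 and 837 after sleep deprivation, without overlap, at -0.23 ± 0.092, and Tef, another PAR bZIP gene, was at -0.068 ± 0.091. Of 5 activators, 3 had a higher mean and the median was 0.096, and 3 of 5 at 0.085 without that array. It was 0.056 without sleep-deprived array 1 and 0.057 without saline array 1. Arntl, which encodes BMAL1, read 630, 620 and 622 after saline and 673, 793 and 673 after sleep deprivation, all 3 sleep-deprived arrays above saline, at 0.18 ± 0.10. Clock, its partner, was at 0.10 ± 0.091. Rorb, a retinoid-related orphan receptor, read 553, 542 and 601 after saline and 451, 514 and 377 after sleep deprivation, all lower, at -0.34 ± 0.13. Without sleep-deprived array 2 all 9 repressors had a lower mean, at a median of -0.14.

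**Figure D4:**
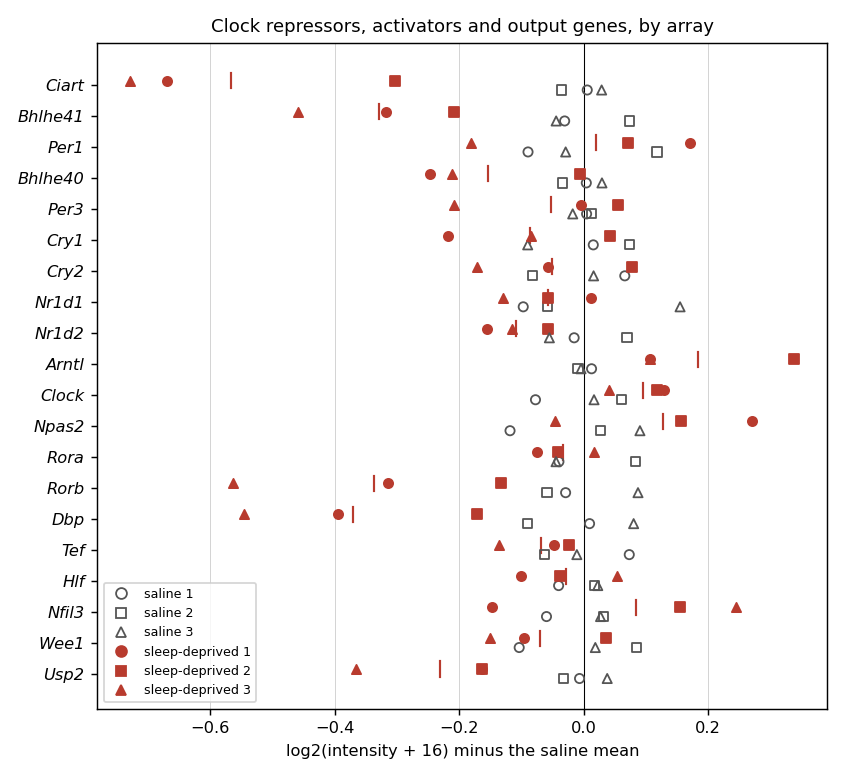
Clock repressors (top, Ciart to Nr1d2), activators (Arntl to Rorb) and output genes (Dbp to Usp2) by array, as log2(intensity + 16) minus the saline mean (horizontal axis). Open grey symbols are saline arrays, filled red symbols sleep-deprived arrays and red bars their means; Ciart, Bhlhe41, Rorb, Dbp, Usp2 and, narrowly, Nr1d2 have all 3 sleep-deprived arrays below saline, and Arntl has all 3 above.

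Immediate-early transcription factors had no common direction. Of 8 AP-1 genes, 4 had a higher and 4 a lower mean, with a median of 0.012. Leaving out sleep-deprived array 2 gave 3 higher, 5 lower and a median of -0.042, and over all arrays left out in turn the median ran from -0.042 to 0.092. Junb, the AP-1 partner of Fos, read 564, 577 and 503 on the saline arrays and 448, 478 and 433 on the sleep-deprived arrays, without overlap, at -0.27 ± 0.095. Npas4, a calcium-driven neuronal transcription factor, read 1074, 1103 and 1070 after saline and 887, 833 and 798 after sleep deprivation, also without overlap, at -0.36 ± 0.11. Fos, Junb and Npas4 thus had lower values on all 3 sleep-deprived arrays. Egr3, a zinc finger factor of the same class, was higher, at 840, 1103 and 916 after saline and 1379, 1130 and 1034 after sleep deprivation, with overlapping groups and a difference of 0.30 ± 0.13. Egr1 was at 0.059 ± 0.092. The 8 Egr, Nr4a and Npas4 genes had a median of -0.11, with 3 higher and 5 lower. The split was 2 and 6, at -0.17, without sleep-deprived array 2, and without saline array 2 the median was 0.028.

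Activity-induced effector genes, the products that act at synapses and in signalling, lay mostly higher. Of 16 measured, 13 had a higher mean, the median difference was 0.088, and 4 were at an unadjusted limma p below 0.05 in the higher direction and 0 in the lower. Those 4 were Nptx2, Vgf, Inhba and Lingo1. Inhba, the activin A subunit, read 81.2, 101 and 110 on the saline arrays and 156, 177 and 107 on the sleep-deprived arrays, where only array 3 lay among the saline values, at 0.50 ± 0.15. Lingo1, a surface protein of axons and neurons, was at 0.24 ± 0.11. Bdnf, the neurotrophin, read 142, 149 and 142 after saline and 169, 210 and 149 after sleep deprivation, at 0.25 ± 0.12, and was highest on sleep-deprived array 2. Homer1, a scaffold of glutamate receptors, read 1232, 1400 and 1140 after saline and 1453, 1550 and 1363 after sleep deprivation, at 0.21 ± 0.11. Arc, which acts in AMPA receptor removal, read 1722, 1896 and 1614 after saline and 1473, 1961 and 1941 after sleep deprivation, overlapping, at 0.030 ± 0.12. The list depended on sleep-deprived array 2: without it 8 members were higher and 8 lower, and the median was 0.028.

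Genes that feed back on kinase signalling had a median of 0.089, with 9 of 13 higher, and a median of -0.015 with 6 of 13 higher in the absence of sleep-deprived array 2. Dusp4, a MAP kinase phosphatase, read 338, 403 and 318 on the saline arrays and 449, 463 and 364 on the sleep-deprived arrays, at 0.26 ± 0.11 with overlapping groups. Growth-arrest genes were split 5 higher and 5 lower, at a median of -0.019, with Cdkn1a at the top and Btg2 at the bottom. They were split 2 and 8, at -0.064, without sleep-deprived array 2, and without array 1 the median was 0.036. Gadd45g, a stress sensor of that list, read 196, 193 and 193 after saline and 127, 196 and 131 after sleep deprivation: arrays 1 and 3 lay low and array 2 at the saline level. Its difference was -0.35 ± 0.13, and -0.54 ± 0.092 without array 2.

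Glucocorticoid targets leaned higher. Of 17 measured, 14 had a higher mean, with a median of 0.11, and 4 were at an unadjusted limma p below 0.05, all higher. Fkbp5, a chaperone that dampens the glucocorticoid receptor, read 143, 137 and 123 on the saline arrays and 173, 179 and 156 on the sleep-deprived arrays, without overlap, at 0.30 ± 0.092. Sult1a1, a sulfotransferase, read 172, 142 and 158 after saline and 191, 218 and 192 after sleep deprivation, also without overlap, at 0.32 ± 0.10. Zbtb16, a zinc finger repressor, was at 0.24 ± 0.10 and Il1r1, the interleukin 1 receptor, at 0.22 ± 0.10, both with overlapping groups. The classical targets Sgk1, a kinase gene, and Tsc22d3, which encodes GILZ, were at 0.048 ± 0.13 and -0.10 ± 0.11, each within its standard error of 0. Without sleep-deprived array 2 the list had 12 higher and 5 lower, at a median of 0.049.

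The acute-phase and reactive astrocyte list held the highest difference of all genes. Lcn2, the iron-siderophore-binding lipocalin 2 of acute-phase responses, read 124, 61.2 and 78.6 on the saline arrays and 566, 70.2 and 503 on the sleep-deprived arrays. Arrays 1 and 3 were several times above every saline array, and array 2 was at the saline level. Over all 3 arrays the difference was 1.56 ± 0.51, with an adjusted p of 1.00 in limma. Without sleep-deprived array 2 it was 2.45 ± 0.19, with a limma adjusted p of 0.000529, the smallest in that fit. Array 2 was the disagreeing array, so leaving it out narrows the spread, and that p is no support for a difference. Osmr, the oncostatin M receptor, read 132, 148 and 124 after saline and 172, 158 and 158 after sleep deprivation, without overlap, at 0.25 ± 0.10. Serpina3n, described above, was high on all 3 arrays, array 2 included. Gfap, the astrocyte filament protein, read 564, 478 and 523 after saline and 590, 583 and 538 after sleep deprivation, at 0.13 ± 0.11. In all, 12 of 16 members had a higher mean, at a median of 0.067, and 13 of 16 and 0.10 without array 2.

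Endothelial markers also had higher means, beside these 2 lists, and their part in the values above was not tested. Of 18 endothelial markers 16 had a higher mean, with a median of 0.12. It was 14 of 18 and 0.10 without sleep-deprived array 2, and without saline array 2 the median was 0.064. Their summed intensity was 4412 to 4979 on the saline arrays and 4987 to 5082 on the sleep-deprived arrays. Vwf, the von Willebrand factor stored by endothelial cells, read 155, 136 and 139 on the saline arrays and 228, 162 and 202 on the sleep-deprived arrays, without overlap, at 0.41 ± 0.12. Mfsd2a, a lipid transporter of the blood-brain barrier, read 431, 408 and 470 after saline and 519, 572 and 509 after sleep deprivation, at 0.28 ± 0.10, and the amino acid transporter Slc38a5 was at 0.33 ± 0.13. The defining markers Pecam1 and Cldn5 were at 0.19 ± 0.091 and 0.19 ± 0.11. Of the 18, 15 were above the array's median on all 6 arrays and none was at 0. In bulk tissue, more cells of a type and more RNA per cell cannot be told apart, nor fewer and less. Markers of mural cells, the neighbours of endothelium in the vessel wall, had a median of 0.016, with 6 of 11 higher, and -0.018, with 5 of 11 higher, without sleep-deprived array 2.

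**Figure D5:**
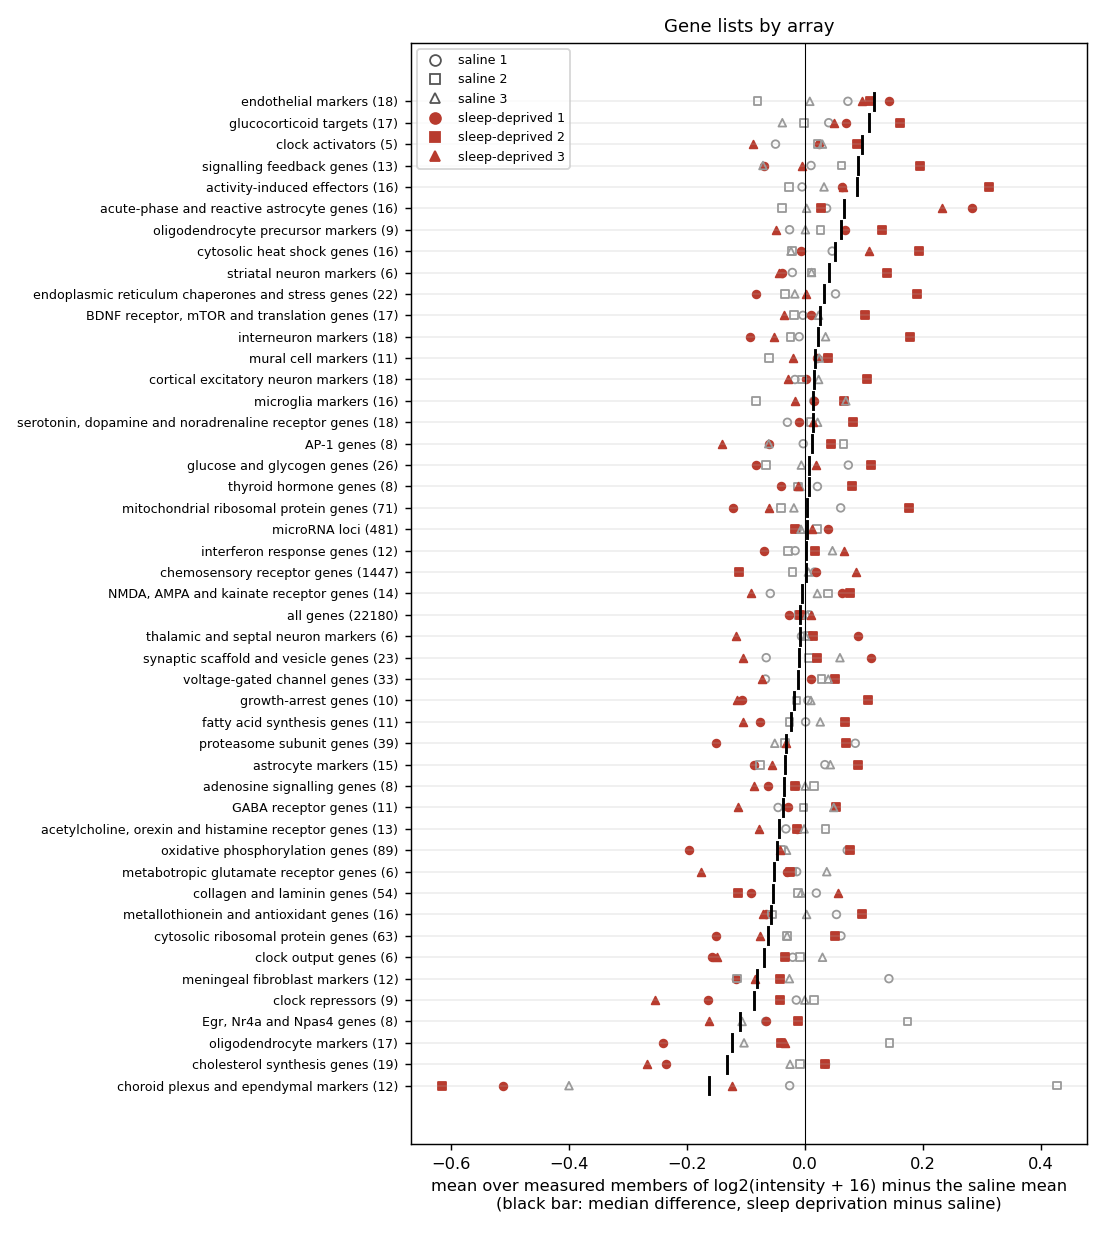
Gene lists with at least 5 measured members (number in brackets), ordered by the median difference between sleep deprivation and saline (black bar). Symbols are the mean over members of log2(intensity + 16) minus the saline mean on each array (horizontal axis), open grey for saline and filled red for sleep-deprived; endothelial markers and glucocorticoid targets stand at the top, and cholesterol synthesis genes and choroid plexus markers at the bottom, with sleep-deprived array 2 often apart from arrays 1 and 3.

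Cytosolic heat shock genes had a higher mean in 12 of 16, with a median of 0.051. Leaving out sleep-deprived array 2 gave 9 of 16 and 0.024, and without array 1 the median was 0.15. Hspa1b, an inducible HSP70, read 134, 130 and 99.3 on the saline arrays and 171, 168 and 161 on the sleep-deprived arrays, without overlap, at 0.42 ± 0.12. Hsph1, a nucleotide exchange factor of HSP70, read 1287, 1115 and 1248 after saline and 1424, 1568 and 1663 after sleep deprivation, without overlap, at 0.35 ± 0.12. Hspa8, the constitutive HSC70, was at 0.049 ± 0.088. Hspa1b has a near-identical copy, Hspa1a, so its probe set may read both. Among 22 endoplasmic reticulum chaperones and stress genes, 14 were higher, at a median of 0.032, but without sleep-deprived array 2 only 5 were higher and 17 lower, at -0.042. Over all arrays left out in turn their median ran from -0.042 to 0.12. Hspa5, the chaperone BiP, read 944, 919 and 851 after saline and 831, 1127 and 896 after sleep deprivation, with array 2 alone above the saline arrays, at 0.061 ± 0.11. Calr, calreticulin, read 1964, 1826 and 1818 after saline and 2082, 2389 and 2168 after sleep deprivation, without overlap, at 0.24 ± 0.090. Of the cold-inducible RNA-binding genes, Cirbp was measured and read 308, 199 and 262 after saline and 154, 243 and 185 after sleep deprivation, overlapping through array 2, at -0.38 ± 0.18.

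Cholesterol synthesis genes had a lower mean in 18 of 19, with a median of -0.13 against -0.0088 over all genes. At an unadjusted limma p below 0.05 there were 4 lower and 0 higher. Sqle, squalene epoxidase, read 472, 460 and 414 on the saline arrays and 349, 413 and 282 on the sleep-deprived arrays, without overlap, at -0.37 ± 0.12. Hmgcs1, which makes HMG-CoA, read 2160, 2054 and 2092 after saline and 1609, 2027 and 1628 after sleep deprivation, where array 2 lay just under the lowest saline array, at -0.27 ± 0.10. Msmo1, a sterol oxidase, read 687, 741 and 689 after saline and 482, 696 and 527 after sleep deprivation, at -0.32 ± 0.13. Fdps, which makes farnesyl diphosphate, read 395, 348 and 327 after saline and 264, 357 and 254 after sleep deprivation, at -0.29 ± 0.13. In all 4 genes arrays 1 and 3 were low and array 2 stood near or among the saline arrays. Without array 2 the median was -0.23, with 18 of 19 lower and 10 of them at an unadjusted limma p below 0.05. In that fit 656 of 22180 genes were lower at that p, and the median over all genes was -0.012. The mean of the list on each array lay below 0 on sleep-deprived arrays 1 and 3, at -0.24 and -0.27, and above it on array 2, at 0.033. The count of 10 thus comes from leaving out the array that disagreed and is no support for the lower values.

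Oligodendrocyte markers, of cells that make much cholesterol for myelin, had a lower mean in 13 of 17, at a median of -0.12, and 0 of 17 reached an unadjusted limma p below 0.05. Their summed intensity was 6756 to 8275 on the saline arrays and 6075 to 7573 on the sleep-deprived arrays, which overlapped, and none was at 0. The median was -0.14, with 14 of 17 lower, without sleep-deprived array 2, -0.0053 without sleep-deprived array 1 and -0.026 without saline array 2. Mbp, myelin basic protein, read 1088, 1240 and 970 after saline and 967, 1141 and 1133 after sleep deprivation, at -0.021 ± 0.15. Mog, a myelin surface glycoprotein, read 273, 307 and 267 after saline and 184, 275 and 287 after sleep deprivation, low on array 1 alone, at -0.20 ± 0.19. The part of these markers in the cholesterol values was not tested. Fatty acid synthesis genes were lower in 9 of 11 with a median of -0.023. All 11 were lower, at -0.084, without sleep-deprived array 2, and without array 3 the median was 0.016. Fasn, fatty acid synthase, was at -0.087 ± 0.092.

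Of 89 oxidative phosphorylation genes, 70 had a lower mean, at a median of -0.047, and 1, Atp5g1, was at an unadjusted limma p below 0.05. Atp5g1, a subunit of ATP synthase, was at -0.29 ± 0.12. Without sleep-deprived array 2, 82 of 89 were lower, at -0.11, and without array 1 the median was 0.023. The list's mean deviation was -0.20 on array 1, 0.076 on array 2 and -0.043 on array 3. Cytosolic ribosomal protein genes were lower in 46 of 63, at a median of -0.062. Without array 2 it was 55 of 63 and -0.11, and the median was -0.0020 without array 1 and -0.012 without saline array 1. Their members at an unadjusted p below 0.05, Rpl32l and Rps16, were dim and went opposite ways, at -0.43 ± 0.15 and 0.34 ± 0.15, and such genes share sequence with many processed copies. For mitochondrial ribosomal protein genes 33 of 71 were lower, at a median of 0.0029, and 63 of 71, at -0.096, without array 2. Over all arrays left out in turn their median ran from -0.096 to 0.070. Mrpl28 was at 0.21 ± 0.10. Glucose and glycogen genes had 14 of 26 higher at a median of 0.0063, and 10 of 26 at -0.047 without array 2. Their median ran from -0.047 to 0.047 over all arrays left out in turn. Slc2a1, the glucose transporter of vessels and astrocytes, was at 0.10 ± 0.090 and Hk2, a hexokinase, at 0.011 ± 0.088. Metallothionein and antioxidant genes had 5 of 16 higher and 11 lower, at a median of -0.057, with the same split and -0.086 without array 2, and 0.0038 without array 3. The metallothionein genes Mt1 and Mt2 were at 0.17 ± 0.10 and 0.12 ± 0.11.

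Few receptor and channel genes stood out. Htr1b, the serotonin 1B receptor, read 209, 214 and 197 on the saline arrays and 266, 327 and 258 on the sleep-deprived arrays, without overlap, at 0.42 ± 0.11. Htr2a, the serotonin 2A receptor, read 678, 750 and 878 after saline and 982, 1053 and 805 after sleep deprivation, overlapping, at 0.29 ± 0.12. Over 18 serotonin, dopamine and noradrenaline receptor genes the median was 0.013, with 10 higher, and -0.0049, with 8 higher, without sleep-deprived array 2. Grm2, a presynaptic metabotropic glutamate receptor, read 992, 963 and 1104 after saline and 908, 875 and 823 after sleep deprivation, without overlap, at -0.23 ± 0.093. Hrh3, the histamine H3 receptor, read 1045, 1021 and 1082 after saline and 955, 949 and 773 after sleep deprivation, without overlap, at -0.24 ± 0.11. Kcnj3, a G protein-gated potassium channel, read 1351, 1445 and 1399 after saline and 1239, 1205 and 1198 after sleep deprivation, without overlap, at -0.20 ± 0.090. Metabotropic glutamate receptor genes were lower in 4 of 6, at a median of -0.052, and in 5 of 6, at -0.096, without sleep-deprived array 2. Acetylcholine, orexin and histamine receptor genes were lower in 8 of 13, at -0.045, and in 9 of 13, at -0.063, without that array. For voltage-gated channel genes it was 18 of 33 at -0.012, and 19 of 33 at -0.033. Each list had 1 member lower at an unadjusted limma p below 0.05, the gene named above. The NMDA, AMPA and kainate receptor genes had 6 of 14 higher at a median of -0.0059, and 0 at an unadjusted limma p below 0.05. Leaving out sleep-deprived array 2 gave 4 of 14 and -0.029, and without array 3 the median was 0.047. Adenosine signalling genes, which are tied to sleep need, had 7 of 8 lower at a median of -0.036 with 0 at that p, and 5 of 8 lower at -0.11 without array 2. GABA receptor genes had 6 of 11 lower at -0.037, and 9 of 11 at -0.078 without array 2, while the median was 0.014 without array 3.

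The 18 cortical excitatory markers had a median of 0.015 and split 10 higher and 8 lower, and -0.046 with 7 higher and 11 lower when sleep-deprived array 2 was left out. Their median ran from -0.046 to 0.062 over all arrays left out in turn. Etv1, a marker of deep-layer neurons, read 1360, 1559 and 1494 on the saline arrays and 1211, 1209 and 1118 on the sleep-deprived arrays, without overlap, at -0.31 ± 0.094. Tle4, of layer 6, went the other way, at 664, 685 and 598 after saline and 741, 784 and 824 after sleep deprivation, at 0.27 ± 0.12. Interneuron markers were split 9 and 9, at 0.022, and 5 higher and 13 lower, at -0.049, without sleep-deprived array 2. The median of the interneuron markers ran from -0.049 to 0.087 over all arrays left out in turn. Among them the calcium buffer gene Calb1 read 1311, 1245 and 1460 after saline and 1049, 1189 and 1008 after sleep deprivation, at -0.30 ± 0.11, and Gad1 was at -0.21 ± 0.12. Microglia markers had 11 of 16 higher at a median of 0.014, and 9 of 16 at 0.019 without sleep-deprived array 2. C1qb, a complement subunit made by microglia, read 464, 404 and 478 after saline and 570, 542 and 552 after sleep deprivation, without overlap, at 0.30 ± 0.10, while P2ry12 and Cx3cr1 were at -0.26 ± 0.13 and 0.0073 ± 0.088. Of 15 astrocyte markers 7 were higher and 8 lower, at a median of -0.034, and 4 and 11, at -0.060, without sleep-deprived array 2. The water channel Aqp4 had the lowest difference of that list, at -0.19 ± 0.12.

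Choroid plexus and ependymal markers were lower in 12 of 12, at a median of -0.16, and this rests on a few arrays. Ttr, transthyretin, a transcript very abundant in choroid plexus, read 1624, 8428 and 110 on the saline arrays and 89.5, 104 and 428 on the sleep-deprived arrays. Saline array 2 stood far above all others and saline array 1 next, while saline array 3 lay among the sleep-deprived arrays. The difference of -2.76 ± 1.06 is the lowest of all genes and has a standard error above 1. Kl, klotho, read 133, 587 and 134 after saline and 129, 113 and 127 after sleep deprivation, high on saline array 2 alone. Without saline array 2 the list's median was -0.094, without sleep-deprived array 2 it was -0.088, with 9 of 12 lower, and without sleep-deprived array 3 it was -0.27. The summed intensity of these markers was 1239 to 10162 on the saline arrays and 1031 to 1678 on the sleep-deprived arrays, and 1 of 12 was above the array's median on all 6 arrays. Folr1, a further marker, was at -0.17 ± 0.14 and Clic6 at -0.32 ± 0.14. Meningeal fibroblast markers, of another tissue at the edge of the cortex, were lower in 11 of 12 at a median of -0.081, in 11 of 12 at -0.064 without sleep-deprived array 2, and at -0.029 without saline array 1.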

How the data were processed

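Total RNA of the anterior cingulate cortex was labelled with biotin and read on Affymetrix arrays, 3 per group. The authors deposited linear intensity values per probe set, made with Affymetrix Expression Console 1.1.1 and PLIER 2.0 per the submitters' processing notes. Which background correction and normalization they applied is not given in the sources used here. No 2 arrays were identical.

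Of 41345 deposited probe sets, 23521 were assigned to a single gene by the platform annotation, 1814 to several and 16010 to none. The brightest probe set stood for each of 22180 genes, 1082 of which had several. From the deposited intensity values, log2(intensity + 16) was computed, and group means were fitted to all 9 arrays with limma 3.58.1 in R 4.3.3 (lmFit, eBayes, 6 residual degrees of freedom), with Benjamini-Hochberg adjustment over all genes. The fit was tested on simulated data.

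The genes named were the 12 higher and 12 lower with the smallest p at a mean intensity of at least 100, the 3 and 3 below it, up to 6 members at an unadjusted p below 0.05 and the first 3 measured members of each list. The comparison and the 48 gene lists were chosen with earlier results of these data known; the microRNA name pattern was narrowed after the values were seen. Bmal1 was matched as Arntl. Coordinates and sequences are from RefSeq tables of GRCm38.p6.

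Replicate numbers were checked for pairing: same-numbered saline and sleep-deprived arrays correlated at -0.20, 0.016 and 0.013 in their deviations from the group means. Different-numbered arrays correlated at -0.17 to 0.18, so these values show no pairing and cannot exclude it. The fit has no block. Alternatives were the 6 arrays alone, quantile normalization, median centring, other offsets, a filter on dim genes, the mean of probe sets, limma-trend, array weights, a replicate block, all probe sets and leaving out each array in turn.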

Additional observations from a re-analysis of the deposited data

How the results depend on the processing

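No gene passed the adjusted p of 0.05 in the limma fit as reported, and the count was 0 too with 6 arrays only, quantile normalization, either other offset, the mean of probe sets, the dimmest genes left out, array weights and all deposited probe sets. With limma-trend it was 3 (Mical2, Mir29a and Sgsm1), with median centring 1 (Mir29a), and at an adjusted p under 0.10 it was 1. Leaving out 1 array gave 0 to 4, namely Ciart, Frzb, Lcn2 and Mir29a without sleep-deprived array 2 and Mir29a without sleep-deprived array 1. For Ciart, Frzb and Lcn2 the array left out was the sleep-deprived one nearest saline, which favours a small p. Genes at an unadjusted p below 0.05 numbered 781, 1374 with array weights, and 571 to 2079 with 1 array left out, the highest without sleep-deprived array 3 (2079) and array 2 (1256). Genes whose groups do not overlap went from 1576 to between 2798 and 5705 with 1 array left out, where 3 arrays face 2 and separation is easier. Of 48 gene lists, 7 had a median of at least 0.10 in size, 4 with an offset of 64, and 4 to 11 with 1 array left out. With the replicate block the counts were 0 and 887, and because no pairing by number was shown, the block is given here only.

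Of 107 genes tracked, 8 changed sign under some alternative, all with small differences. With array weights Arc was at -0.027 and Hk2 at -0.0018. With 1 array left out Per1 ranged from -0.054 to 0.12, Arc from -0.041 to 0.16, Sgk1 from -0.027 to 0.13, Slc17a7 from -0.053 to 0.00046, Mbp from -0.11 to 0.068, Cx3cr1 from -0.049 to 0.039, Hspa5 from -0.065 to 0.15 and Hk2 from -0.027 to 0.055. Why these values moved was not tested. Values of probe sets near or below the offset of 16, such as Mir29b-1, Olfr1084 and Vmn1r173, are understated as folds, and 3 arrays a group limit every comparison.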

Other observations

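Among genes under intensity 100, besides Mir29a, the smallest p in the higher direction belonged to Slc4a11, a membrane transporter of the SLC4 family, and the keratin-associated protein gene Krtap19-9b. Slc4a11 read 72.3, 76.6 and 77.4 on the saline arrays and 124, 116 and 109 on the sleep-deprived arrays, without overlap, and differed by 0.53 ± 0.10 with a limma adjusted p of 0.499. Krtap19-9b read 39.2, 42.9 and 38.7 after saline and 67.6, 74.3 and 57.5 after sleep deprivation, at 0.55 ± 0.11. In the lower direction stood Spin4, a member of the spindlin family, at 77.2, 86.1 and 81.4 after saline and 50.9, 50.9 and 65.0 after sleep deprivation, a difference of -0.45 ± 0.11. The olfactory receptor gene Olfr1084 and the vomeronasal receptor gene Vmn1r173 were also lower, at -0.44 ± 0.10 and -0.50 ± 0.12, but their intensities were at most 13.0 and 12.0 on any of the 6 arrays. The 1447 chemosensory receptor genes had a median of 0.00077, with 50 higher and 51 lower at an unadjusted limma p below 0.05. Without sleep-deprived array 2 the median was 0.053, with 929 higher and 518 lower. In that fit 110 were higher and 35 lower at an unadjusted limma p below 0.05. The mean deviation of these genes was 0.018, -0.11 and 0.086 on sleep-deprived arrays 1, 2 and 3.

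The ketamine arrays of the same series give a further reading of the leading genes, and both comparisons share the sleep-deprived arrays. The leading genes were chosen by p against saline, so these comparisons are not independent. Nptx2 read 193, 197 and 194 after ketamine, so sleep deprivation minus ketamine was 0.76 ± 0.12 (limma adjusted p 0.172), beside 0.59 ± 0.12 against saline. Cdkn1a read 351, 296 and 306 after ketamine, at 0.74 ± 0.12 beside 0.57 ± 0.12. Sgsm1 read 496, 486 and 466, at 0.57 ± 0.10 beside 0.57 ± 0.10, and Mir29a 31.8, 25.6 and 35.0, at 0.68 ± 0.12 beside 0.96 ± 0.12. Fos read 559, 535 and 629 after ketamine, so its sleep-deprived arrays lay at 0.038 ± 0.10 against ketamine and -0.39 ± 0.10 against saline. Junb likewise read 425, 374 and 393, at 0.18 ± 0.095 and -0.27 ± 0.095. Ciart read 361, 336 and 359, between the other groups, at -0.33 ± 0.11 and -0.57 ± 0.11. Lcn2 read 62.1, 61.3 and 75.0, near the saline level, at 1.86 ± 0.51 and 1.56 ± 0.51. Some leading genes differed less from ketamine than from saline, such as Zmiz1, at 0.29 ± 0.11 beside 0.49 ± 0.11. Bhlhe41 was at -0.12 ± 0.093 beside -0.33 ± 0.093 and Shd at -0.17 ± 0.084 beside -0.34 ± 0.084. Among the leading lower genes only Dbp differed more from ketamine, at -0.39 ± 0.10 beside -0.37 ± 0.10.

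Probe sets without a single gene name numbered 17824, and 0 of them passed the adjusted p of 0.05 in limma, while 4.89% had an unadjusted p below 0.05. The smallest adjusted p among them, 0.507, belonged to probe set 17428873, which read 75.6, 86.2 and 79.1 on the saline arrays and 28.2, 41.1 and 39.1 on the sleep-deprived arrays, a difference of -0.89 ± 0.12. For Etv1, Hrh3, Kcnj3 and Slc2a1 a further probe set had the same sign as the one reported. Etv1's second probe set was at -0.38 ± 0.099. Tef's dimmer probe set was at 0.061 ± 0.11 and its brighter one at -0.068 ± 0.091.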
